A study of Mus musculus with 8 samples.

Results

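The 45 genes described here encode the machinery of the interferon response: an interferon and its receptor, nucleic acid sensors, the kinases and transcription factors that carry the signal, and the effectors, regulators and GTPases whose transcription interferon raises. They were picked by name and found on the arrays by gene name or older symbol, where they had 69 probes, and each gene was read from its brightest probe. Of the 45 genes, 31 passed the filter on dim probes (Agilent's flag for a signal above background, in either channel, on 2 or more arrays) and are among the 14806 genes that were tested; the other 14 are accounted for by their brightness.

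When a cell senses microbial nucleic acid or lipopolysaccharide, the kinases TBK1 and IKKε phosphorylate IRF3, which switches on the gene of interferon beta. Secreted interferon binds the receptor IFNAR1/IFNAR2 and assembles a complex that holds STAT2 and IRF9 on interferon-stimulated response elements, so that Isg15, the Ifit and Oas genes and many others are transcribed together. Macrophages mount this response to bacteria, and IRF7, itself interferon-induced, amplifies it.

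The cells were RAW 264.7, a macrophage-like mouse line of BALB/c origin. They were treated with Lactobacillus acidophilus MTCC-10307 or Bacillus clausii MTCC-8326, the first a lactic acid bacterium and the second a spore former, at a multiplicity of infection of 100 bacteria per cell for 1, 2, 4 or 6 h, and each treatment was set against untreated cells of the same time. The RNA of 3 cultures was pooled per condition and hybridised on 1 of 8 2-colour arrays, treated RNA in Cy5 and untreated RNA in Cy3, with no dye swap and no replicate array. Each value below is the log2 ratio of treated over untreated cells on 1 array, so 0 is equality, unless a sentence says otherwise.

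Between 39.6% and 51.5% of probes were well above background in the treated channel and between 42.2% and 47.4% in the untreated channel, and probes with replicate spots varied by a median SD of 0.10 to 0.13 log2 units within an array. Of 10 macrophage markers, 7 (among them Cd68, Csf1r and Adgre1) were well above background in both channels on all 8 arrays, Mrc1 on none, and all 3 epithelial markers on none. The T cell marker Cd3e was above background in each channel on 7 arrays; its part in the results was not tested. The 4 arrays of a bacterium shared a slide and scan, so slide and bacterium cannot be told apart, and the position on the slide was the same for a given time. The labels leave unsaid whether both bacteria's arrays of a time used the same untreated RNA. Pooled RNA cannot tell fewer responding cells from less RNA per cell. The p-values of the fit with time and bacterium are measured against how unevenly the bacteria differ over the times. Those within a bacterium and of the interaction are measured against the spread between the arrays of a phase. Both spreads are moderated over all genes, and neither holds the spread between cultures. An error shared by the arrays of a time is not seen by the first fit.

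Promoters of 3 members are shown because they carry interferon-stimulated response elements, and that of Oasl1 because it was the member highest in treated cells on average. The windows are those of RefSeq (GRCm38.p6), 250 bases before to 50 bases after the start site, and capitals mark every match to the core of the element (GAAA, any 2 bases, GAAA), searched on both strands; adjoining capitals are overlapping matches.
Isg15, chr4:156200769-156201068, minus strand: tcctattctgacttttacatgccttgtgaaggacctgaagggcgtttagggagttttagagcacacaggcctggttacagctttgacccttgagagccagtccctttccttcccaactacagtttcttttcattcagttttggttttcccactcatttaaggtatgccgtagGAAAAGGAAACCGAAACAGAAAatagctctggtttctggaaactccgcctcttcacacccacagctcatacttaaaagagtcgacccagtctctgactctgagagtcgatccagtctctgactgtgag
Oas1a, chr5:120907476-120907775, minus strand: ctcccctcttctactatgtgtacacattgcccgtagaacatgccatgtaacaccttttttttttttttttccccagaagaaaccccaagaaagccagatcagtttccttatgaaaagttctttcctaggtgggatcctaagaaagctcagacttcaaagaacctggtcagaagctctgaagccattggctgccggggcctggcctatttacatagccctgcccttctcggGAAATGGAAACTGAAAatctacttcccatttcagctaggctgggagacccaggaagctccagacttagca
Ifit1, chr19:34640639-34640938, plus strand: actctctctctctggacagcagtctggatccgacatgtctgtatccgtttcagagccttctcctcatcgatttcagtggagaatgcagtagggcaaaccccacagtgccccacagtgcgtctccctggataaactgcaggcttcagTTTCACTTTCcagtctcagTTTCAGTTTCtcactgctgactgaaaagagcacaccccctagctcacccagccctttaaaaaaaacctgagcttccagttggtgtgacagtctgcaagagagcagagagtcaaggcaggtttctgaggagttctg
Oasl1, chr5:114922990-114923289, plus strand: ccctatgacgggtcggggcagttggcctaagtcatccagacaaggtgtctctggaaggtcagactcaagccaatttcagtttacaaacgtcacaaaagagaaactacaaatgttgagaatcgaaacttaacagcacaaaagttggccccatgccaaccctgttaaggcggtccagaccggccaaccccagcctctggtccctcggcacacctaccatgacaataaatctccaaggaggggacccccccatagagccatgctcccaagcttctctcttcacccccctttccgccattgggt
Isg15, a ubiquitin-like modifier, had 3 overlapping matches that began 78, 72 and 66 bases before the start site, and Oas1a had 2 that began 20 and 14 bases before it. Ifit1, an RNA-binding translation inhibitor, had 2 separate matches, and these letters did not occur in the window of Oasl1. RefSeq promoters were matched for 40 of the 45 members, and 20 of the 40 (50%) held such a match, against 3.99% of 27025 genes. The share was 50% both among the 28 that passed the filter on dim probes and among the 12 that did not. The interferon-gamma-type motif (TTC, any 3 bases, GAA) was found in 12 of the 40 (30%), against 9.55% of genes, and all 12 were among the members that passed.

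The first question was whether the interferon programme was detectable in these cells. Of the 45 members, 19 were well above background in both channels on all 8 arrays and 9 had no probe above background in any channel of any array. The 9 were Ifnb1, the sensors Ddx58 (RIG-I), Ddx60 and Zbp1, the antiviral genes Mx1, Cmpk2, Oas1g and Oasl2, and the GTPase gene Ifi47. The other 5 that did not pass were Irf7, Ifit1, Ifit3, Ifi44 and Trim30a, with isolated readings. The shares of all genes by the same criteria are not given here, so these counts do not show whether the members were detected more or less often than other genes.

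Ifnb1, which encodes interferon beta, had raw spot brightness of 50.2, 44.6, 48.6 and 45.9 scanner units (1, 2, 4 and 6 h) in L. acidophilus-treated cells and 46.5, 48.4, 50.4 and 63.6 in B. clausii-treated cells, against 74.9, 68.9, 70.6 and 57.3 in the untreated cells on the L. acidophilus arrays and 71.5, 70.2, 81.2 and 62.6 in those on the B. clausii arrays. The median undetected probe had 45.1 to 53.6 units in the treated channel and 65.8 to 82.0 in the untreated channel, and the dimmest detected one had 56.4 to 71.6 and 77.8 to 99.5. Ifnb1 thus lay at the level of undetected probes, and on the brightest array, B. clausii at 6 h, it was not well above background either. Its log2 ratio there was 0.51 and on the other 7 arrays lay between -0.09 and 0.14.

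Irf7, the interferon-induced amplifier, had treated brightness of 56.6, 55.3, 61.1 and 53.3 units after L. acidophilus and 52.1, 61.9, 63.7 and 57.5 after B. clausii, against 83.8, 80.4, 83.1 and 77.0 in untreated cells on the L. acidophilus arrays and 90.5, 93.8, 101.9 and 100.0 on the B. clausii arrays. It was well above background in 1 channel of 1 array, treated cells at 4 h of L. acidophilus, where its log2 ratio was 0.07. Ifit1 was likewise detected in 1 channel of 1 array, treated cells at 4 h of B. clausii, with a log2 ratio of 0.0077. Both ratios were smaller than the median SD of replicate spots on those arrays (0.11 and 0.10), so neither resolves a difference. Ifi44 reached background in both channels of the B. clausii 6 h array alone, with 273.2 units in treated and 592.7 in untreated cells, on a spot that was left out of the ratios.

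Over all 8 arrays there were 25 readings of 14 members in which 1 channel was well above background and the other was not. For each, the detected channel's normalised level was divided by the higher of the other channel's own level and that of its dimmest detected probe. Where the own level was the higher, the value is the measured ratio and not a bound. The highest value was 1.35-fold, lower in treated cells, for Xaf1 at 6 h of B. clausii. The lowest was 0.95-fold, treated over untreated, for Gbp3 at 6 h of L. acidophilus.

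**Figure D1:**
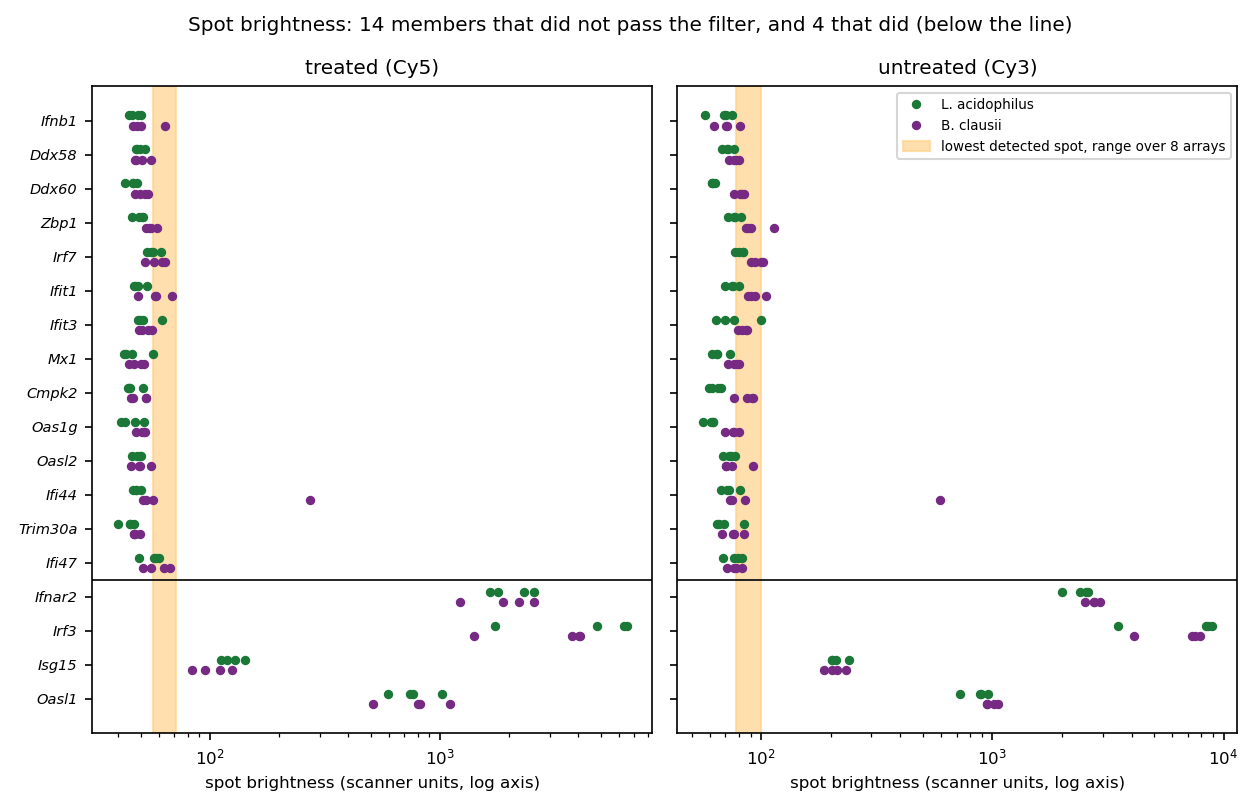
Raw spot brightness (scanner units, log axis) of the 14 members that did not pass the filter and, below the line, of 4 that did, in treated cells (left) and untreated cells (right); each point is 1 array and the shaded band spans the lowest detected spot of the 8 arrays. The 14 sit in or below the band on nearly all arrays. Ifi44 lies farthest above it, on 1 B. clausii array at 273.2 and 592.7 units. In untreated cells Zbp1, Ifit1, Irf7 and Ifit3 also pass it, with up to 114.2, 105.4, 101.9 and 99.6 units.

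No member that passed was 2-fold from equality on any array, where 1.63% of all genes tested were on at least 1. At 1.5-fold, 4 of 31 members qualified on at least 1 array (12.9%), against 14.2% of all genes. They were Oas2 at 1 h of L. acidophilus, Oasl1 at 4 h of L. acidophilus and at 2 and 4 h of B. clausii, and Irf3 and Ifnar1 at 6 h of B. clausii. By array, the SD was 0.16 to 0.31 over the members and 0.21 to 0.30 over all genes, and the widest gap was at 1 h of B. clausii, with 0.17 over the members and 0.29 over all genes. Agilent's processed signals gave 7 members past 2-fold (18.2% of all genes): Stat2, Ifit2, Usp18, Xaf1, Gbp2, Irgm2 and Igtp.

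**Figure D2:**
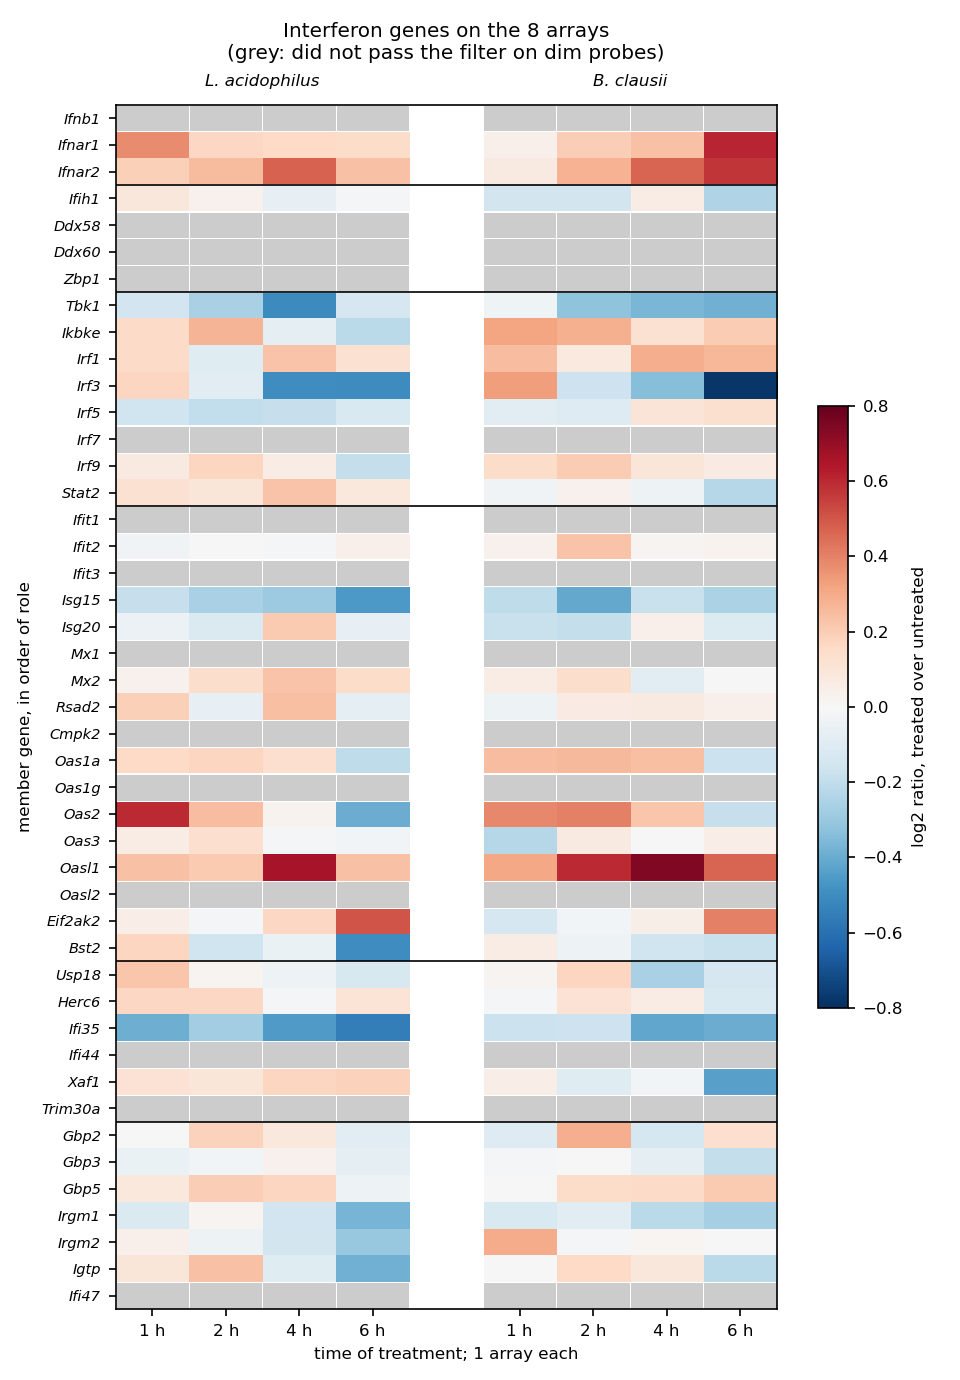
Log2 ratio of treated over untreated cells (colour) for the 45 members, grouped by role from top to bottom, on the 4 L. acidophilus and the 4 B. clausii arrays; grey rows did not pass the filter. The highest value is Oasl1 at 4 h of B. clausii (0.74) and the lowest Irf3 at 6 h of B. clausii (-0.78).

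Averaged over the times, 10 of 31 members differed between L. acidophilus-treated and untreated cells (limma, adjusted p under 0.05 over all genes), 4 higher and 6 lower, where 42.2% of all genes tested did (23.7% higher, 18.5% lower). With B. clausii 13 of 31 differed, 8 higher and 5 lower, where 44.2% of all genes did (23.1% higher, 21.1% lower). The members' shares, 32.3% and 41.9%, were not above those of all genes, and their median changes were 0.03 and 0.01, against 0.02 and 0.01 over all genes. A constant dye effect would be inside these means. Centring each array on its median, in place of loess, shifted the all-gene median by -0.09 for L. acidophilus and -0.25 for B. clausii. The called members then split into 0 higher and 7 lower with L. acidophilus, where 39.4% of all genes were called. With B. clausii they split into 0 higher and 13 lower, where 64.2% of all genes were called. The L. acidophilus count was 6, 6 and 4 without its 1, 2 or 4 h array, and the B. clausii count 7 and 8 without its 2 or 6 h array. Over the fits with 1 array left out, 21.9% to 46.9% of all genes were called with L. acidophilus and 26.7% to 48.3% with B. clausii.

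**Figure D3:**
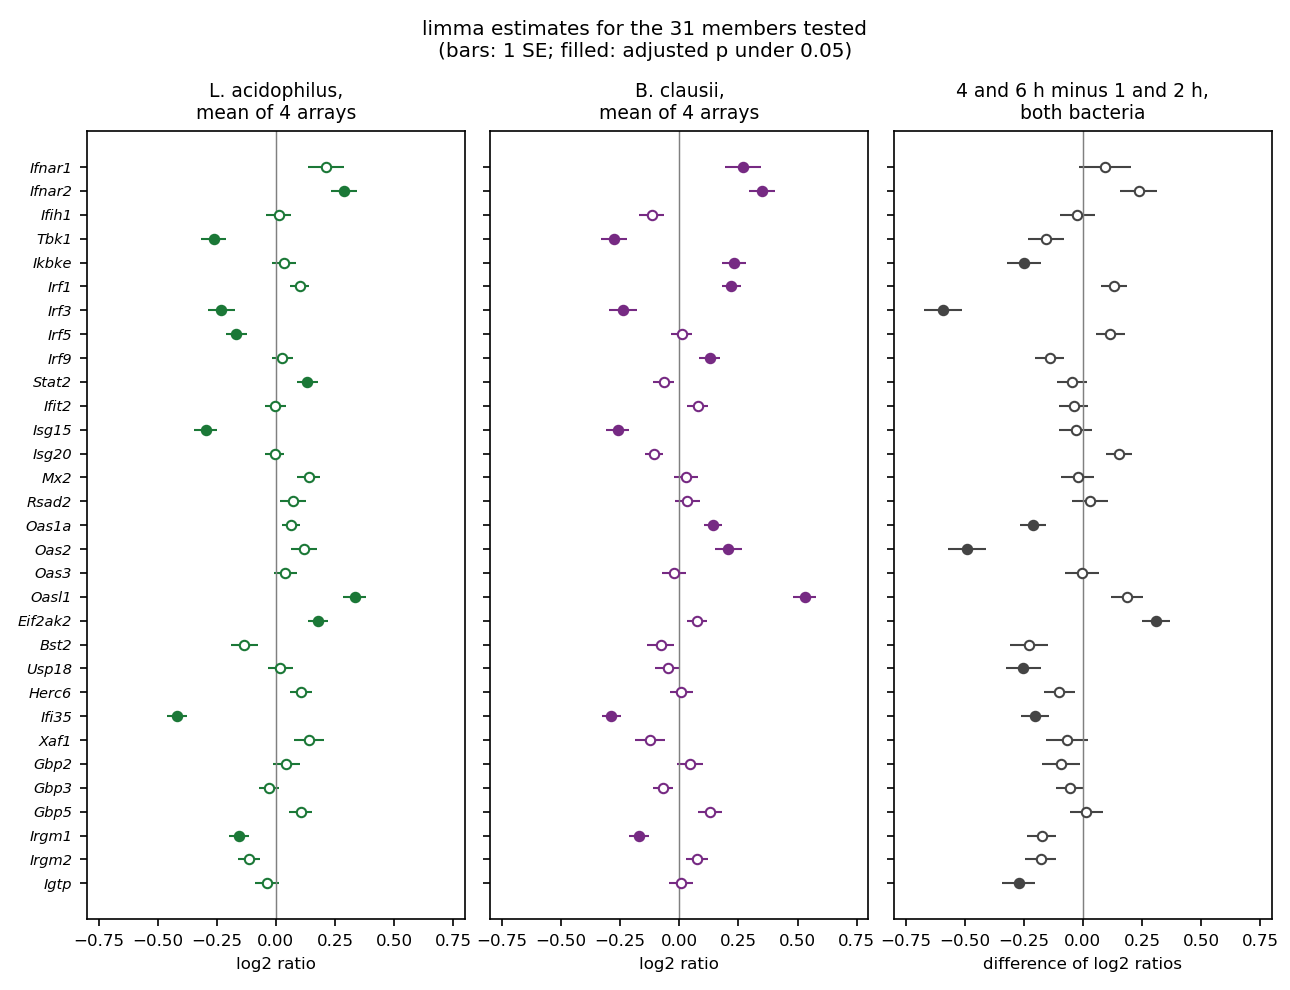
limma estimates with 1 SE for the 31 members tested: mean log2 ratio with L. acidophilus (left), with B. clausii (middle) and the difference of 4 and 6 h minus 1 and 2 h over both bacteria (right); filled points passed an adjusted p of 0.05. Oasl1 (0.33 and 0.53) and Ifi35 (-0.42 and -0.29) stand at the ends of the 2 mean responses and Irf3 (-0.59) at the end of the time comparison.

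Both chains of the receptor were well above background throughout. Ifnar2 was 0.19, 0.25, 0.47 and 0.23 at 1, 2, 4 and 6 h of L. acidophilus and 0.07, 0.28, 0.46 and 0.57 of B. clausii. It was higher in treated cells on all 8 arrays, with means of 0.29 ± 0.06 (SE, limma adjusted p = 0.0040) and 0.35 ± 0.06 (adjusted p = 0.0013), and under median centring 0.11 (adjusted p = 0.30) and -0.11 (adjusted p = 0.23). Its second probe, also above background on all arrays, went the other way, with means of -0.18 and -0.15.

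The Ifnar2 and Irf3 probes that disagree are shown by the 30 bases at their 5′ ends, since the reading of both genes turns on which probe is taken; the files place them on chromosomes 16 and 7 and name no genome build.
Ifnar2, brightest probe: gtccttagagacttacttccaaagacaaac
Ifnar2, second probe: tacatgggtcctggctcaaagacttccaat
Irf3, brightest probe: acttggtggaggacatggacttccaggcca
Irf3, second probe: acgcgttgtagacggaagcctgcagtctca
The transcript part that each probe matches was not examined. Ifnar2's second probe was -0.26, -0.43, 0.13 and -0.17 after L. acidophilus and -0.36, -0.32, 0.18 and -0.11 after B. clausii, so that both probes were highest at 4 h among the L. acidophilus arrays but lay on opposite sides of 0 at 1, 2 and 6 h with either bacterium.

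Ifnar1 was 0.38, 0.16, 0.16 and 0.15 after L. acidophilus and 0.04, 0.20, 0.23 and 0.61 after B. clausii. It was above 0 on all 8 arrays and farthest from it at 1 h of L. acidophilus and at 6 h of B. clausii. Its mean passed the test with B. clausii (0.27 ± 0.08, limma adjusted p = 0.021), turned to -0.17 (adjusted p = 0.12) under median centring and did not pass with L. acidophilus (0.21 ± 0.08, adjusted p = 0.055). The Ifnar1 call was lost without the B. clausii 2, 4 or 6 h array, with a mean of 0.13 (adjusted p = 0.19) without the last.

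Of the 4 sensors only Ifih1 (MDA5, a sensor of long double-stranded RNA) passed the filter, with means of 0.01 ± 0.05 and -0.12 ± 0.05 that did not pass the test (limma adjusted p = 0.88 and 0.099). Of the kinases and transcription factors 7 of 8 passed the filter and 6 were above background in both channels on all arrays. With L. acidophilus 1 of the 7 was higher (Stat2) and 3 lower (Tbk1, Irf3 and Irf5), where 23.7% of all genes were higher and 18.5% lower. With B. clausii 3 were higher (Ikbke, Irf1 and Irf9) and 2 lower (Tbk1 and Irf3), where 23.1% of all genes were higher and 21.1% lower. Under median centring the B. clausii means of Ikbke, Irf1 and Irf9 were -0.01, -0.21 and -0.14.

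Tbk1, the kinase that phosphorylates IRF3, was -0.15, -0.26, -0.51 and -0.13 after L. acidophilus and -0.04, -0.32, -0.37 and -0.38 after B. clausii. It was lower in treated cells on all 8 arrays, least so at 1 h of B. clausii. The means were -0.26 ± 0.05 (limma adjusted p = 0.0051) and -0.28 ± 0.05 (adjusted p = 0.0033), and a second, dimmer probe gave -0.11 and -0.22. Without the L. acidophilus 4 h array the L. acidophilus mean was -0.21 (adjusted p = 0.065).

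Irf3, the transcription factor at the head of interferon beta induction, was 0.17, -0.09, -0.50 and -0.50 after L. acidophilus and 0.33, -0.17, -0.34 and -0.78 after B. clausii. The 4 arrays at 4 and 6 h lay between -0.78 and -0.34 and the 4 arrays at 1 and 2 h between -0.17 and 0.33, so the phases did not overlap. The means were -0.23 ± 0.06 and -0.24 ± 0.06 (limma adjusted p = 0.0125 and 0.0096), and late minus early was -0.59 ± 0.08 (adjusted p = 0.0018), the lowest of the 31 members. On the log2 brightness scale the treated channel read 12.99, 12.59, 12.19 and 11.11 after L. acidophilus and 12.90, 12.32, 12.20 and 10.94 after B. clausii, against 12.82, 12.69, 12.69 and 11.61 in untreated cells on the L. acidophilus arrays and 12.57, 12.48, 12.54 and 11.72 on the B. clausii arrays. Both channels were lowest at 6 h, with late minus early differences of -1.09 in treated and -0.50 in untreated cells. The second Irf3 probe, a dimmer one, was 0.16, -0.22, 0.11 and -0.14 after L. acidophilus and -0.20, -0.12, -0.25 and -0.07 after B. clausii, and its late minus early difference was 0.0046 (adjusted p = 0.98). The first probe's late call held without any 1 array, its L. acidophilus mean lost its call without the L. acidophilus 1, 2 or 4 h array (adjusted p up to 0.13) and its B. clausii mean without the B. clausii 2 or 6 h array (adjusted p up to 0.077).

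**Figure D4:**
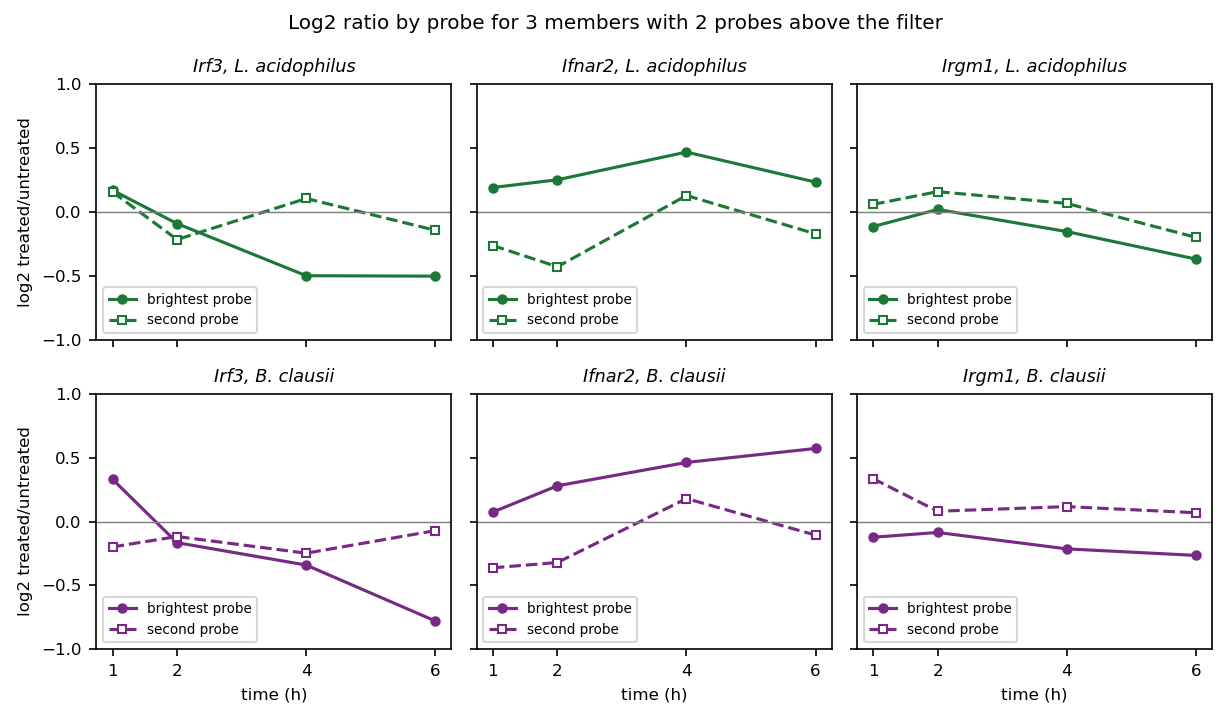
Log2 ratio over time of the brightest probe (solid) and the second probe (dashed) of Irf3, Ifnar2 and Irgm1 with L. acidophilus (top) and B. clausii (bottom), 1 array per point. The brightest and second Irf3 probes differ most at 4 h with L. acidophilus (-0.50 and 0.11) and at 6 h with B. clausii (-0.78 and -0.07), and the Ifnar2 and Irgm1 second probes differ from the first in level, with B. clausii means of -0.15 for the second and 0.35 for the first Ifnar2 probe and of 0.15 for the second and -0.17 for the first Irgm1 probe.

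Ikbke, which encodes IKKε, was 0.15, 0.27, -0.07 and -0.22 after L. acidophilus and 0.32, 0.28, 0.12 and 0.20 after B. clausii. It was lower with L. acidophilus at all 4 times. The B. clausii mean was 0.23 ± 0.05 (limma adjusted p = 0.0066; -0.0073 under median centring), the L. acidophilus mean 0.03 ± 0.05 (adjusted p = 0.63), and their difference, -0.20 ± 0.07, did not pass (unadjusted p = 0.025, adjusted p = 0.17). Late minus early it fell by 0.25 ± 0.07 (adjusted p = 0.037), a call kept without the B. clausii 2 or 6 h array and lost without any of the other 6 arrays (adjusted p up to 0.17). The B. clausii mean lost its call without the B. clausii 6 h array (0.16, adjusted p = 0.0501).

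Irf1, an interferon-gamma and NF-kappaB target that activates many of the same genes, was 0.15, -0.10, 0.23 and 0.12 after L. acidophilus and 0.25, 0.08, 0.29 and 0.27 after B. clausii. The L. acidophilus mean, 0.10 ± 0.04, did not pass the test (limma adjusted p = 0.068), the B. clausii mean, 0.22 ± 0.04, did (adjusted p = 0.0023), and their difference did not (adjusted p = 0.25). Under median centring the B. clausii mean was below 0 (-0.21, adjusted p = 0.012). Irf5, which acts downstream of MyD88, was -0.16, -0.20, -0.19 and -0.12 after L. acidophilus and -0.09, -0.10, 0.10 and 0.13 after B. clausii. The L. acidophilus mean was -0.17 ± 0.04 (adjusted p = 0.016), that of B. clausii 0.01 ± 0.04 (adjusted p = 0.86), and the difference of -0.18 ± 0.06 did not pass (adjusted p = 0.16). The Irf5 call was lost without the L. acidophilus 2, 4 or 6 h array (adjusted p up to 0.16).

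Stat2, a subunit of the complex that binds the response element, was 0.12, 0.10, 0.23 and 0.09 after L. acidophilus and -0.03, 0.03, -0.04 and -0.23 after B. clausii, well above background on 5 of 8 arrays in each channel. Its L. acidophilus mean, 0.13 ± 0.04 (limma adjusted p = 0.0395), kept its call without the B. clausii 1 or 6 h array and lost it without any of the other 6 (adjusted p up to 0.24). Its partner Irf9 had a B. clausii mean of 0.13 ± 0.04 (adjusted p = 0.041), a call kept without the L. acidophilus 1 or 6 h array and lost without any of the other 6 (adjusted p up to 0.23).

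Of 17 antiviral effectors 11 passed the filter and 7 were detected in both channels on all arrays. With L. acidophilus 2 of the 11 were higher (Oasl1 and Eif2ak2) and 1 lower (Isg15), where 23.7% of all genes were higher and 18.5% lower. With B. clausii 3 were higher (Oasl1, Oas1a and Oas2) and 1 lower (Isg15), where 23.1% of all genes were higher and 21.1% lower. Under median centring Oas1a and Oas2 with B. clausii were -0.25 and -0.08.

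Oasl1, an oligoadenylate synthetase-like protein that in mice restrains translation of Irf7 mRNA, was 0.23, 0.21, 0.66 and 0.23 after L. acidophilus and 0.31, 0.60, 0.74 and 0.47 after B. clausii. It was higher in treated cells on all 8 arrays, highest at 4 h with either bacterium, and lower with L. acidophilus at all 4 times. The means were 0.33 ± 0.05 (limma adjusted p = 0.0012) and 0.53 ± 0.05 (adjusted p = 8.46e-05), and 0.15 (adjusted p = 0.11) and 0.09 (adjusted p = 0.33) under median centring. The difference of -0.20 ± 0.07 did not pass (unadjusted p = 0.019, adjusted p = 0.15).

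Isg15 was -0.18, -0.26, -0.29 and -0.46 after L. acidophilus and -0.20, -0.41, -0.18 and -0.25 after B. clausii. It was lower in treated cells on all 8 arrays and lowest at 6 h of L. acidophilus. The means were -0.30 ± 0.05 (limma adjusted p = 0.0022) and -0.26 ± 0.05 (adjusted p = 0.0031), and late minus early was -0.03 ± 0.07 (adjusted p = 0.79). Raw brightness was 83.7 to 142.8 units in treated and 186.7 to 240.8 in untreated cells, above the dimmest detected probe in each channel. With local backgrounds taken as deposited, the B. clausii mean was -0.14 (adjusted p = 0.12).

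Oas2, which makes the second messenger that activates RNase L, was 0.60, 0.25, 0.03 and -0.40 after L. acidophilus and 0.39, 0.40, 0.22 and -0.18 after B. clausii. Values were highest at 1 and 2 h and below 0 at 6 h with either bacterium. Late minus early was -0.49 ± 0.08 (limma adjusted p = 0.0036). The treated channel fell by 0.38 log2 units between the phases and the untreated channel was 0.11 higher late. The call held in all 8 fits without 1 array (adjusted p at most 0.024), and with processed signals the difference was -0.71 (adjusted p = 0.076). The B. clausii mean was 0.21 ± 0.06 (adjusted p = 0.0165), lost without the B. clausii 2, 4 or 6 h array (adjusted p up to 0.14).

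Oas1a, another synthetase, has close copies such as Oas1g, and whether its probe also binds their RNA was not tested. It was 0.16, 0.17, 0.13 and -0.21 after L. acidophilus and 0.24, 0.26, 0.24 and -0.17 after B. clausii. Ratios were above 0 on all arrays but the pair at 6 h. Late minus early was -0.21 ± 0.05 (limma adjusted p = 0.024), a call kept without the L. acidophilus 1 or 6 h array and lost without any of the other 6 (adjusted p up to 0.11). The B. clausii mean was 0.14 ± 0.04 (adjusted p = 0.0160), lost without the B. clausii 1, 2 or 4 h array (adjusted p up to 0.12).

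Eif2ak2, the kinase PKR that halts translation on sensing double-stranded RNA, was 0.05, -0.01, 0.17 and 0.50 after L. acidophilus and -0.13, -0.02, 0.05 and 0.40 after B. clausii. It was farthest above 0 at 6 h with either bacterium and was the member called higher late: 0.31 ± 0.06 (limma adjusted p = 0.0065), in all 8 fits without 1 array (adjusted p at most 0.046). The treated channel was 0.25 log2 units higher late and the untreated channel 0.06 lower. The L. acidophilus mean was 0.18 ± 0.04 (adjusted p = 0.0089; 0.0040 under median centring), a call lost without the L. acidophilus 1 or 4 h array (adjusted p up to 0.075).

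The other 6 effectors that passed, Ifit2, Isg20, Mx2, Rsad2, Oas3 and Bst2, passed none of the tests by their brightest probes, with means between -0.13 and 0.14 over both bacteria. A second, dimmer Isg20 probe had means of -0.22 with L. acidophilus and -0.14 with B. clausii. Ifit2, Mx2 and Rsad2 were detected in the treated channel on 3, 2 and 4 arrays and in the untreated channel on 1, 0 and 2. Bst2, the tetherin gene, was detected throughout and was -0.50 at 6 h of L. acidophilus, against -0.18 to 0.17 on the other 7 arrays.

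Among the regulators, Ifi35, an interferon-induced leucine zipper protein, was -0.39, -0.28, -0.45 and -0.56 after L. acidophilus and -0.17, -0.17, -0.41 and -0.40 after B. clausii. It was lower in treated cells on all 8 arrays, lower with L. acidophilus at each time, and lower on every array at 4 and 6 h than on any at 1 and 2 h. The means were -0.42 ± 0.04 (limma adjusted p = 2.31e-04) and -0.29 ± 0.04 (adjusted p = 7.23e-04), and both calls held in all alternatives tried. Late minus early was -0.20 ± 0.06 (adjusted p = 0.034), a call kept without the L. acidophilus 1 h array and lost without any of the other 7 (adjusted p up to 0.16).

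Usp18, the protease that removes ISG15 and dampens receptor signalling, was 0.22, 0.02, -0.04 and -0.13 after L. acidophilus and 0.02, 0.17, -0.26 and -0.13 after B. clausii. It was well above background in the treated channel on 3 arrays and in the untreated on 1, so most of these ratios compare spots at background level. Late minus early was -0.25 ± 0.07 (limma adjusted p = 0.037), a call kept without the L. acidophilus 2 h array and lost without any of the other 7 (adjusted p up to 0.17), with channel differences of -0.03 in treated and 0.22 in untreated cells. Herc6 and Xaf1 passed none of the tests by their brightest probes. A second Herc6 probe, above background on 8 arrays in the treated and 6 in the untreated channel, had an L. acidophilus mean of -0.16. That of the brightest probe was 0.11.

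Of 7 interferon-inducible GTPase genes, which act on vacuoles that hold microbes, 6 passed the filter. Igtp (Irgm3) was 0.10, 0.23, -0.10 and -0.38 after L. acidophilus and 0.00, 0.16, 0.09 and -0.21 after B. clausii. It was lowest at 6 h with either bacterium, and late minus early was -0.27 ± 0.07 (limma adjusted p = 0.023), lost without any 1 of the 4 L. acidophilus arrays (adjusted p up to 0.12). Irgm1, which regulates the other IRG GTPases, was -0.11, 0.02, -0.15 and -0.37 after L. acidophilus and -0.12, -0.09, -0.21 and -0.27 after B. clausii. Its means were -0.15 ± 0.04 (adjusted p = 0.0185) and -0.17 ± 0.04 (adjusted p = 0.0105), against 0.02 and 0.15 from its second probe. Those calls were lost without any 1 L. acidophilus array (adjusted p up to 0.099) and without the B. clausii 2 or 4 h array (adjusted p up to 0.11). Gbp2, Gbp3, Gbp5 and Irgm2 passed none of the tests, with means between -0.11 and 0.13.

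**Figure D5:**
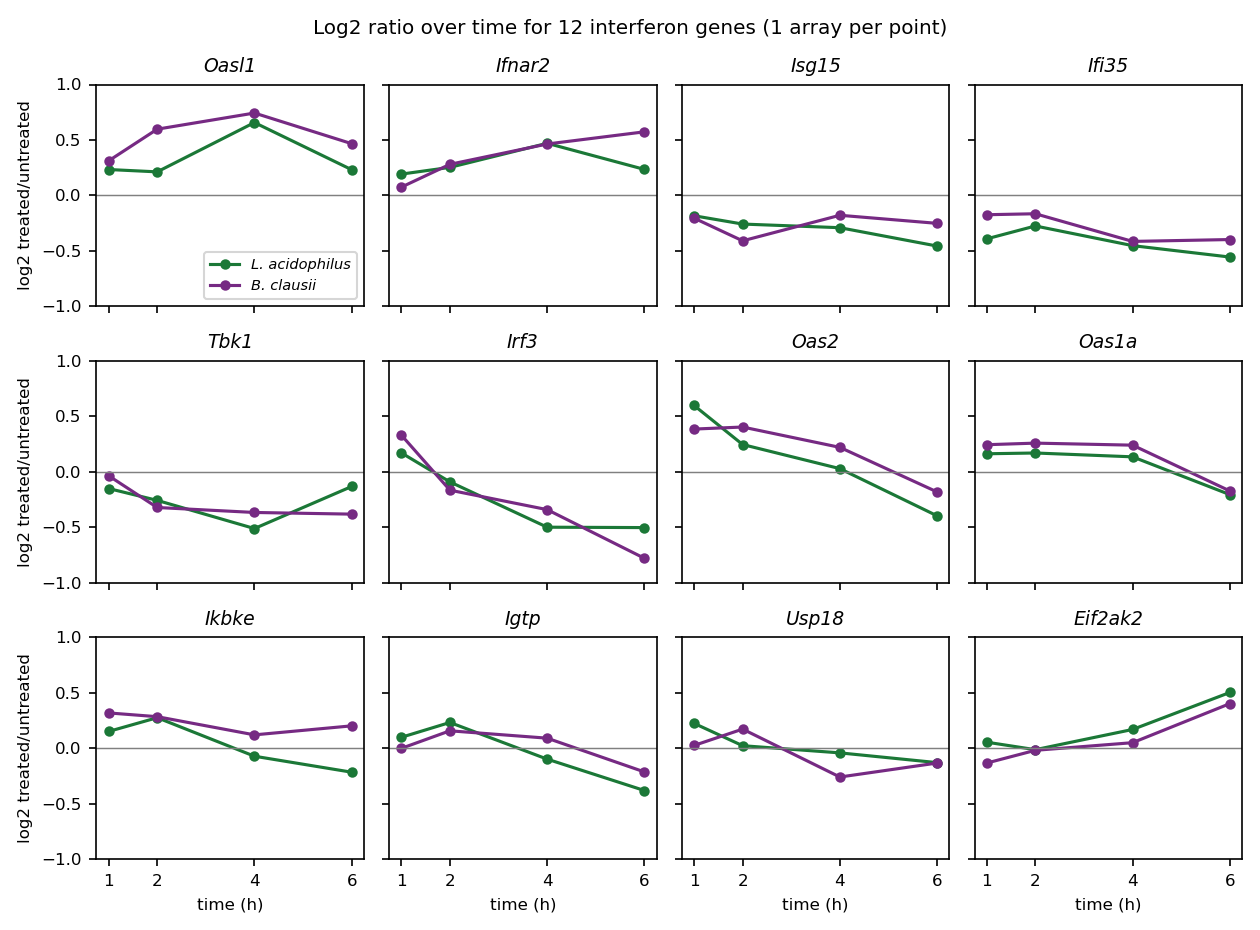
Log2 ratio of treated over untreated cells at 1, 2, 4 and 6 h of L. acidophilus (green) and B. clausii (purple) for 12 members, 1 array per point. Oasl1 is above and Isg15, Ifi35 and Tbk1 are below 0 at all 4 times with both bacteria, while Irf3, Oas2, Oas1a and Igtp are below 0 at 6 h and Eif2ak2 is highest there.

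The time comparison, 4 and 6 h minus 1 and 2 h over both bacteria, cancels a constant dye effect. Of 31 members 8 passed (limma, adjusted p under 0.05), 1 higher and 7 lower, where 24.6% of all genes did (12.2% higher, 12.3% lower). The total share, 25.8%, was near that of all genes, while the lower calls were 22.6% of members and the higher ones 3.23%. The median difference was -0.06 for the members and 0.00 for all genes. In 5 of 31 members (16.1%) all 4 late arrays lay below all 4 early ones, against 7.94% of all genes, and in 0 above, against 8.19%. The 5 were Irf3, Oas2, Usp18, Ifi35 and Irgm1, each by its brightest probe. The second Irf3 probe had a late minus early difference of 0.0046, and its phases overlapped. The phases of the second Irgm1 probe overlapped too, with 0.06 at 1 h and 0.07 at 4 h of L. acidophilus. Usp18 was well above background on 3 arrays in the treated channel and 1 in the untreated. Under median centring the 8 called split into 5 higher and 3 lower, with 4 of the 8 in both sets. In that setting 22.2% of all genes were called. The count was 3 to 7 when 1 array was left out, where 11.9% to 27.4% of all genes were called. It was 4 and 3 without the L. acidophilus 2 or 4 h array and 4, 5 and 4 without the B. clausii 1, 2 or 4 h array. Time and position on the slide cannot be told apart.

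Within a bacterium, where 2 arrays of different times stood for each phase, 0 of 31 members passed with L. acidophilus (limma; 4 at an unadjusted p under 0.05, 12.9%) and 0 with B. clausii (4 likewise, 12.9%). Of all genes 0.108% and 0.209% passed, and 11.3% and 17.7% were under the unadjusted threshold. The largest were Oas2 with L. acidophilus (-0.61, adjusted p = 0.23) and Irf3 with B. clausii (-0.64, adjusted p = 0.16). The interaction of bacterium and phase passed for 0 members and 0% of all genes (limma; 0 members and 1.19% of genes unadjusted).

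Set directly against each other at matched times, L. acidophilus and B. clausii differed in 0 of 31 members (limma; 6 at an unadjusted p under 0.05, 19.4%), where 0.642% of all genes passed and 22.7% did so unadjusted. The differences, L. acidophilus minus B. clausii, ran from -0.20 to 0.27 with a median SE of 0.07, so changes of that size were not resolved. The 6 were Xaf1 (0.27) and Stat2 (0.20), higher with L. acidophilus, and Ikbke (-0.20), Oasl1 (-0.20), Irgm2 (-0.19) and Irf5 (-0.18), lower with it. Of these, Xaf1, Stat2 and Irgm2 were near background. Xaf1 was well above it on 6 arrays in the treated and 8 in the untreated channel, Stat2 on 5 and 5, and Irgm2 on 6 and 5. In 8 members L. acidophilus was below B. clausii at all 4 times (25.8%, against 14.9% of all genes) and in 4 above (12.9%, against 17.7%). Median centring moved the median difference of all genes by 0.17 and gave 4 calls, all higher with L. acidophilus, where 33.4% of all genes passed.

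The rest of the pathway was read from 73 other genes, of which 56 passed the filter. With L. acidophilus 15 were higher and 9 lower (42.9%, where 42.2% of all genes were called), and with B. clausii 16 and 12 (50%, where 44.2% of all genes were). Between the bacteria 0 differed (limma), where 0.642% of all genes did. At an unadjusted p under 0.05 it was 13 of the 56 (23.2%), against 22.7% of all genes. Cxcl10, the interferon-induced chemokine IP-10, was 0.19, 0.29, 0.42 and 0.27 after L. acidophilus and 0.11, 0.37, 0.33 and 0.27 after B. clausii. It was higher in treated cells on all 8 arrays, with means of 0.29 ± 0.04 and 0.27 ± 0.04 (limma adjusted p = 0.0011 and 0.0010), and with B. clausii 0.14 (adjusted p = 0.075) under median centring and 0.15 (adjusted p = 0.082) with local backgrounds as deposited. Tyk2 passed none of the tests, and Jak1 was lower with B. clausii (-0.29 ± 0.04, adjusted p = 6.71e-04).

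Late against early, 8 of the 56 were called higher and 7 lower (26.8%), where 24.6% of all genes were called. The largest fall by the brightest probe was in Irf8, the myeloid transcription factor, which was 0.72, 0.63, 0.06 and -0.57 after L. acidophilus and 0.68, 0.61, 0.02 and -0.41 after B. clausii. Its late minus early difference was -0.88 ± 0.06 (limma adjusted p = 1.34e-04), and with either bacterium it was high at 1 and 2 h and below 0 at 6 h. The second Irf8 probe gave only -0.10 (adjusted p = 0.26), and the call held in the other 21 of 22 alternatives. The adaptor of lipopolysaccharide and RNA sensing Ticam1 (TRIF, -0.57 ± 0.08) and the DNA-sensing adaptor Sting1 (-0.55 ± 0.06) fell, as did Tlr7 (-0.39 ± 0.06) and Parp14 (-0.30 ± 0.06). Sting1 kept its call in all 22 alternatives, Ticam1 and Tlr7 in 21 and Parp14 in 19 of 21, at adjusted p up to 0.11. The calls of Rnf213 (-0.33 ± 0.07) and Pml (-0.24 ± 0.07) were kept in 14 and 10 of 22, with values as small as -0.07 and -0.06 (adjusted p up to 0.56 and 0.77). Rnf213 lost its call without the L. acidophilus 4 h or the B. clausii 2 h array, and Pml without any of 6 arrays, among them all 4 of L. acidophilus.

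On the rising side, the RNA-editing enzyme Adar (0.40 ± 0.07), the immunoproteasome subunit Psmb9 (0.41 ± 0.06), the signalling ligase Traf3 (0.33 ± 0.06) and Tlr2 (0.30 ± 0.06) kept their calls in 18, 19, 19 and 20 of 22 alternatives, and with any array left out. The calls of the other 4 depended more on the setting: Myd88 (0.22 ± 0.05) kept its call in 12 of 22, Ifna2 (0.19 ± 0.06) in 6 of 21, the ligase Traf6 (0.33 ± 0.10) in 7 of 22 and Ifngr2 (0.20 ± 0.06) in 8 of 22. Each of these 4 was lost without any of 6 or more of the 8 arrays. A second probe gave -0.03 for Adar, -0.05 for Traf6 and -0.23 for Ifngr2.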

How the data were processed

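Spot intensities of both channels on a linear scale, local backgrounds and detection flags are deposited for each of 8 arrays; per the file headers they come from Agilent Feature Extraction 10.7.3.1, while the submitters' processing notes give 10.5.1.1. The authors' processed intensities and their log10 ratios of Cy5 over Cy3, also deposited as a value table, were used as alternatives. Per the labels, Cy5 is the treated and Cy3 the untreated RNA, each from 3 pooled cultures.

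With limma 3.58.1 in R 4.3.3, mean signals were corrected by normexp (offset 50), normalised by loess within arrays, and averaged over replicate spots. For the correction, local backgrounds flagged as outliers and over 3 times the array median were set to that median. Their spots, and spots flagged as non-uniform or outlying, were left out of the ratios. Of 41174 probes 21626 passed the filter (above background in 1 channel on 2 arrays), and the brightest stood for each of 14806 genes. Single-channel levels came from quantile normalisation of average brightness. One model had time and bacterium as terms (3 residual degrees of freedom, prior 5.81) and another bacterium by phase (4, prior 6.40); Benjamini-Hochberg adjustment ran over all genes. The code of the fit was checked on simulated data with independent noise and added shifts. Those data had no error shared by a slide, a time or a dye, so they do not test the p-values of these arrays. Signal over background and the number of arrays limit the precision.

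Members and pathway lists were chosen with earlier results of these data known. Values are given per array for members called in a comparison of times or bacteria, for the 5 largest called changes per direction in each mean response, for any 2-fold member, and for Ifnb1, Irf7, Irf3, Isg15 and Cxcl10. Promoters were searched for the motifs by exact letters. Alternatives covered background correction, normalisation, filter, probe choice, threshold, variance prior, time term and each array left out; the second brightest probe was added after seeing the data. Results of a few other genes are not reported here.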

Additional observations from a re-analysis of the deposited data

Results flagged for a closer look

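The results below were picked out because the change between late (4 and 6 h) and early (1 and 2 h) treatment passed the limma test of that difference at an adjusted p under 0.05. All are late minus early differences of log2 ratios over both bacteria. Among the 45 genes these were Irf3 (-0.59), Oas2 (-0.49), Igtp (-0.27), Usp18 (-0.25), Ikbke (-0.25), Oas1a (-0.21), Ifi35 (-0.20) and Eif2ak2 (0.31). Among the other pathway genes they were Irf8 (-0.88), Ticam1 (-0.57), Sting1 (-0.55), Tlr7 (-0.39), Rnf213 (-0.33), Parp14 (-0.30), Pml (-0.24), Psmb9 (0.41), Adar (0.40), Traf6 (0.33), Traf3 (0.33), Tlr2 (0.30), Myd88 (0.22), Ifngr2 (0.20) and Ifna2 (0.19). Of the 8 fits with 1 array left out, Usp18 and Ifi35 lost their calls in 7, Ikbke and Oas1a in 6 and Igtp in 4. Irf3, Oas2 and Eif2ak2 lost theirs in 0. Usp18 was near background. Second probes gave 0.0046 for Irf3, -0.10 for Irf8, -0.03 for Adar, -0.05 for Traf6 and -0.23 for Ifngr2. The calls of Rnf213, Pml, Myd88 and Ifna2 also depended on the setting, as given above. Arrays of 1 time had the same position on their slides, so time and position cannot be told apart.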

How the results depend on the processing

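Counts of called members were 10 with L. acidophilus, 13 with B. clausii and 8 late minus early (42.2%, 44.2% and 24.6% of all genes). They moved by over 1.5 times under these settings. Local backgrounds as deposited gave 6, 7 and 4 (15.5%, 23.9% and 8.78% of all genes). A model without the time term gave 5, 7 and 2 (20.6%, 23.3% and 9.35% of all genes). Late calls were 1 with processed signals (8.7% of all genes), 1 with the deposited ratios (8.65%) and 4 with a normexp offset of 0 (15.2%). They were 4 without the filter (10%) and 14 at an adjusted p under 0.1 (33.1%). Between the bacteria median centring gave 4 calls (33.4% of all genes) in place of 0 (0.642%). Members at 2-fold on any array were 0 (1.63% of all genes). They were 7 with processed signals (18.2%), 7 with the deposited ratios (18.2%), 1 with offset 0 (6.52%) and 1 with median centring (15.1%). At 1.5-fold they were 4 (14.2%). With each array left out in turn the L. acidophilus count was 4 to 14 (21.9% to 46.9% of all genes). The B. clausii count was 7 to 16 (26.7% to 48.3%) and the late minus early count 3 to 7 (11.9% to 27.4%). Counts were 0 between the bacteria (0% to 0.101%), late with L. acidophilus (0% to 0.297%) and for the interaction (0% to 0.054%). Late with B. clausii the count was 0 to 1, 1 without the 4 h array (0% to 6.13%).

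Median centring turned the B. clausii means of Ifnar1 (-0.17), Ifnar2 (-0.11), Ikbke (-0.0073), Irf1 (-0.21), Irf9 (-0.14), Oas1a (-0.25) and Oas2 (-0.079). The second brightest probe turned Ifnar2 (-0.18 with L. acidophilus, -0.15 with B. clausii), Irgm1 (0.022 and 0.15) and, late minus early, Irf3 (0.0046), Ifngr2 (-0.23), Traf6 (-0.053) and Adar (-0.032), and the mean over probes Ifngr2 (-0.015). The causes were not tested. Isg15 and Ifi35 with L. acidophilus, Ifi35 and Tbk1 with B. clausii and Cxcl10 with L. acidophilus kept their calls in all 22 alternatives. No paired analysis was possible because replicate numbers do not exist for single arrays; the time term matched the bacteria by time. Ratios of dim spots are compressed by the offset of 50, so members near background are limited by signal over background.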
